A study of Mus musculus with 6 samples.

Results

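The genes described here carry out fatty acid oxidation and the handling of ketone bodies, together with targets of the nuclear receptor PPARA. The 40 members were taken by name from a list drawn up with earlier results of these data known, by a rule that itself uses no measured value, and all 40 were found among the 12327 genes listed. They comprised the regulator Ppara, 5 genes of fatty acid uptake and activation, 3 of the carnitine shuttle and 14 of mitochondrial beta-oxidation. The others were 3 genes of electron transfer, 8 peroxisomal genes, 2 of ketone body metabolism and 4 other PPARA targets. RNA sequencing measured the small intestine of male, 8-week-old C57BL/6 mice, in 3 sham libraries (replicates 1, 3 and 5) and 3 libraries after intestinal ischemia/reperfusion (I/R; replicates 6, 7 and 9). In the I/R mice the superior mesenteric artery was blocked and then reopened, and sham mice had the same surgery without the block. Levels are FPKM, in which the fragments of a transcript are divided by its length and by the library's mapped total, summed over the listed transcripts of a gene. Whether the libraries came from different animals is not stated in the labels. A p-value here thus reflects how far these 6 libraries scatter, which may be technical.

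Fatty acids are activated to acyl-CoA and carried into mitochondria as carnitine esters. There, chain-length-specific dehydrogenases, hydratases and thiolases shorten them to acetyl-CoA, and their electrons pass through the electron transfer flavoprotein to the respiratory chain. Peroxisomes shorten very long and branched chains first. PPARA binds fatty acids and switches on many of these genes, and enterocytes of the small intestine both absorb fat and burn part of it. Acetyl-CoA can also be turned into ketone bodies, but of the ketone body genes only Acat1 and Bdh1, which act in both making and using them, are members.

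Sequences of 2 loci matter for reading the values, because the listed transcripts either share bases between genes or start at different codons. Acaa1a and Acaa1b encode the peroxisomal 3-ketoacyl-CoA thiolases and lie close together on chromosome 9. Their coding sequences of 1272 bases each were identical at 1228 positions (96.5%) without a gap. The stretch where they differ most is coding bases 259 to 318, shown 5′ to 3′ from the mm10 genome with the 11 differing bases in capitals. The exons of Acaa1a lie within chr9:119341912-119342775 on the plus strand and those of Acaa1b within chr9:119155750-119156597 on the minus strand.
Acaa1a: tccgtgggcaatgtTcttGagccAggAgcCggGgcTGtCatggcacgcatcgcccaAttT
Acaa1b: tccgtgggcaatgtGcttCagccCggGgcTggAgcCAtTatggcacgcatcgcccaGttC

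Crat encodes carnitine acetyltransferase, and 2 of its listed transcripts differ in the start codon that the annotation gives them. The coding start of the longer one, with both start codons in capitals, is shown 5′ to 3′ from chr2:30413208-30415338 on the minus strand with the introns removed. The outer codon opens the coding sequence of ENSMUST00000028207.12 (1878 bases), and the inner one that of ENSMUST00000102854.9 (1815 bases), which lacks the first 21 codons.
Crat: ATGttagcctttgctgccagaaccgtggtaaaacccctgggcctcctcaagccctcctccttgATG

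Depth cannot be read from FPKM, and the listed values summed to between 315726 and 330814 FPKM per library. Every member had a mean of at least 3.21 FPKM over the 6 libraries, the highest being 470.5 FPKM, and none was listed at 0 in any library. The tissue label matched its markers, with median levels of 25 enterocyte genes between 8.04 and 9.48 on the log2(FPKM + 1) scale. I/R replicate 9 stood apart from the other 5 libraries. It had the highest value of 6 of the 7 tested markers of the proximal small intestine and the lowest of all 4 distal markers and all 8 smooth muscle markers. Its level of Fabp6, the ileal bile acid binding protein, was 5.76 FPKM, against 956 to 5201 FPKM in the other libraries. Summed smooth muscle markers came to 30.6 FPKM in this library, 131 to 618 FPKM under sham and 781.6 to 833 FPKM after I/R in replicates 6 and 7. Sham replicate 1 had the lowest value of 5 of the 7 proximal markers. Fold changes of the members described per library are therefore also given without I/R replicate 9. In bulk tissue, fewer cells of a type and less RNA per cell cannot be told apart.

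Fatty acid oxidation genes did not move one way as a group after I/R. The mean of log2(FPKM + 1) was higher in I/R for 20 members (50%) and lower for 20, against 62.6% higher over all genes tested. Counts of higher or lower means in the parts and lists below use this scale. Their median log2 fold change was 0.01, against 0.12 over all 12006 genes tested. No member passed the test of I/R against sham (limma on log2(FPKM + 1), Benjamini-Hochberg adjusted over all genes tested), the lowest adjusted p being 0.432. Over all genes, 4 passed, or 0.0333%. At an unadjusted p below 0.05, 2 members were higher in I/R, Angptl4 and Acsl1, and the share of all genes was 5.56%. As many were lower, Acads and Vnn1, where the share of all genes was 3.38%. Counting members whose groups did not overlap, 2 lay above sham in all I/R libraries (Angptl4 and Acsl1, with 10.6% of all genes), and 3 lay below (Acads, Vnn1 and Crat, with 5.89% of all genes). As shares of the 40 members these are 5% and 7.5%.

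**Figure D1:**
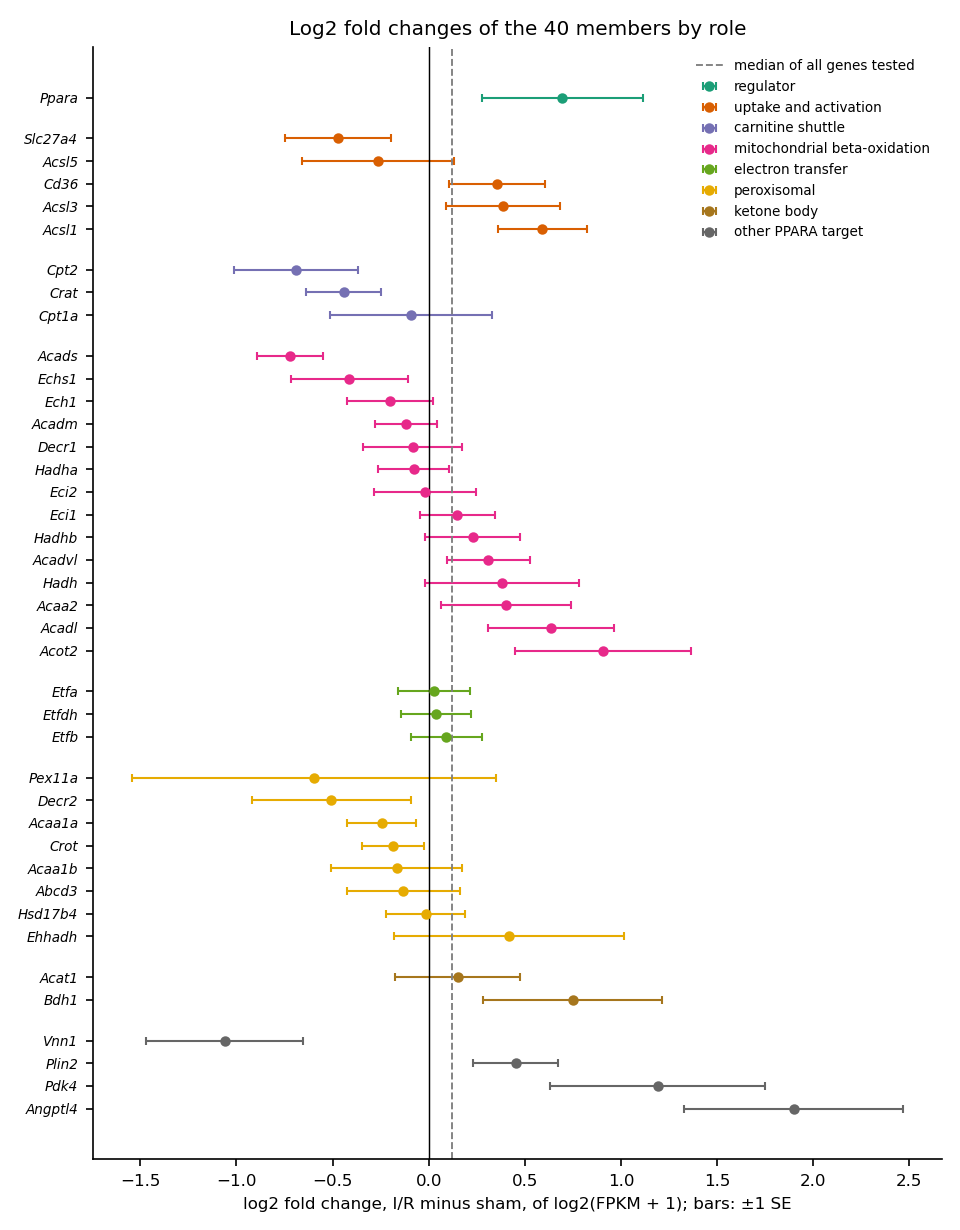
Log2 fold changes (I/R minus sham, log2(FPKM + 1) scale) of the 40 members on the x axis, with bars of 1 standard error, grouped and coloured by role. The solid line marks 0 and the dashed line the median of all genes tested (0.12). The 3 carnitine shuttle genes and 7 of the 8 peroxisomal genes lie left of 0, and Angptl4 lies farthest right at 1.90.

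Ppara itself, at chr15:85735564-85802819, was expressed at 1.86, 3.53 and 3.99 FPKM under sham and at 4.89, 3.19 and 10.1 FPKM after I/R in replicates 6, 7 and 9. The highest value was that of replicate 9, and the groups overlapped through replicate 7. The log2 fold change was 0.69 ± 0.42 (SE), with an adjusted p of 0.630 in limma. Without I/R replicate 9 it was 0.31.

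Of the 4 further PPARA targets, Angptl4, Pdk4 and Plin2 had higher means in I/R and Vnn1 a lower one. Angptl4, a secreted inhibitor of lipoprotein lipase, was the member with the largest fold change. It measured 12.5, 4.66 and 15.4 FPKM in the sham libraries and 53.3, 18.5 and 60.7 FPKM after I/R in replicates 6, 7 and 9. All I/R values lay above all sham values, although replicate 7 exceeded the highest sham library only narrowly. The log2 fold change was 1.90 ± 0.57 (SE; 95% interval 0.53 to 3.26), with an unadjusted p of 0.014 and an adjusted p of 0.484 in limma. Leaving out a library in turn gave log2 fold changes from 1.43 to 2.42, each with an unadjusted p below 0.05, and 1.59 without I/R replicate 9. Fat cells also express Angptl4. The summed level of the 11 tested adipocyte markers was 122 to 210.2 FPKM under sham and 127 to 298 FPKM after I/R, with 5 markers higher and 6 lower by their mean. I/R replicate 9, which had the highest Angptl4, was the lowest library for 8 of the 11, with Adipoq, Plin1, Plin4 and Retn at 0. It also held the highest Cidec (84.2 FPKM), with Fabp4 at 18.5 FPKM and Lipe at 24.0 FPKM. The part of fat cells in the level of Angptl4 was not tested.

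Pdk4, a kinase that shuts off pyruvate dehydrogenase and so spares glucose, was at 4.16, 0.679 and 3.33 FPKM under sham and at 7.33, 3.27 and 11.6 FPKM after I/R. Replicate 7 lay within the sham range while replicates 6 and 9 lay above it, and the log2 fold change of 1.19 ± 0.56 (SE) had an adjusted p of 0.592 and was 0.83 without I/R replicate 9. Plin2, which coats lipid droplets, was at 31.7, 21.8 and 23.8 FPKM under sham and at 35.9, 28.9 and 42.0 FPKM after I/R. Replicate 7 again lay within the sham range, and the log2 fold change was 0.45 ± 0.22 (SE; adjusted p = 0.596), or 0.33 without I/R replicate 9. In Angptl4, Pdk4 and Plin2 alike, sham replicate 3 was the lowest library, I/R replicate 9 the highest and replicate 7 the lowest of the I/R libraries.

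Vnn1, a pantetheinase that releases cysteamine and pantothenate, had its lower values in I/R. It was tightly grouped in sham at 86.6, 82.0 and 84.2 FPKM, and lay at 56.6, 56.3 and 19.7 FPKM after I/R. Every I/R library was below every sham library, and replicate 9 was the lowest of all. The log2 fold change was -1.06 ± 0.41 (SE; unadjusted p = 0.037, adjusted p = 0.543 in limma). Without I/R replicate 9 it was -0.57, and I/R replicates 6 and 7 still lay below all sham libraries (unadjusted p = 0.014). Leaving out sham replicate 1, 3 or 5 gave unadjusted p of 0.080, 0.081 and 0.078. Vnn1 is an enterocyte brush-border gene as well as a PPARA target. The enterocyte markers had lower means in I/R for 18 of 25, with a median log2 fold change of -0.27 and summed levels of 15389 to 27697 FPKM under sham and 13326 to 23270.2 FPKM after I/R. Their part in the result was not tested.

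**Figure D2:**
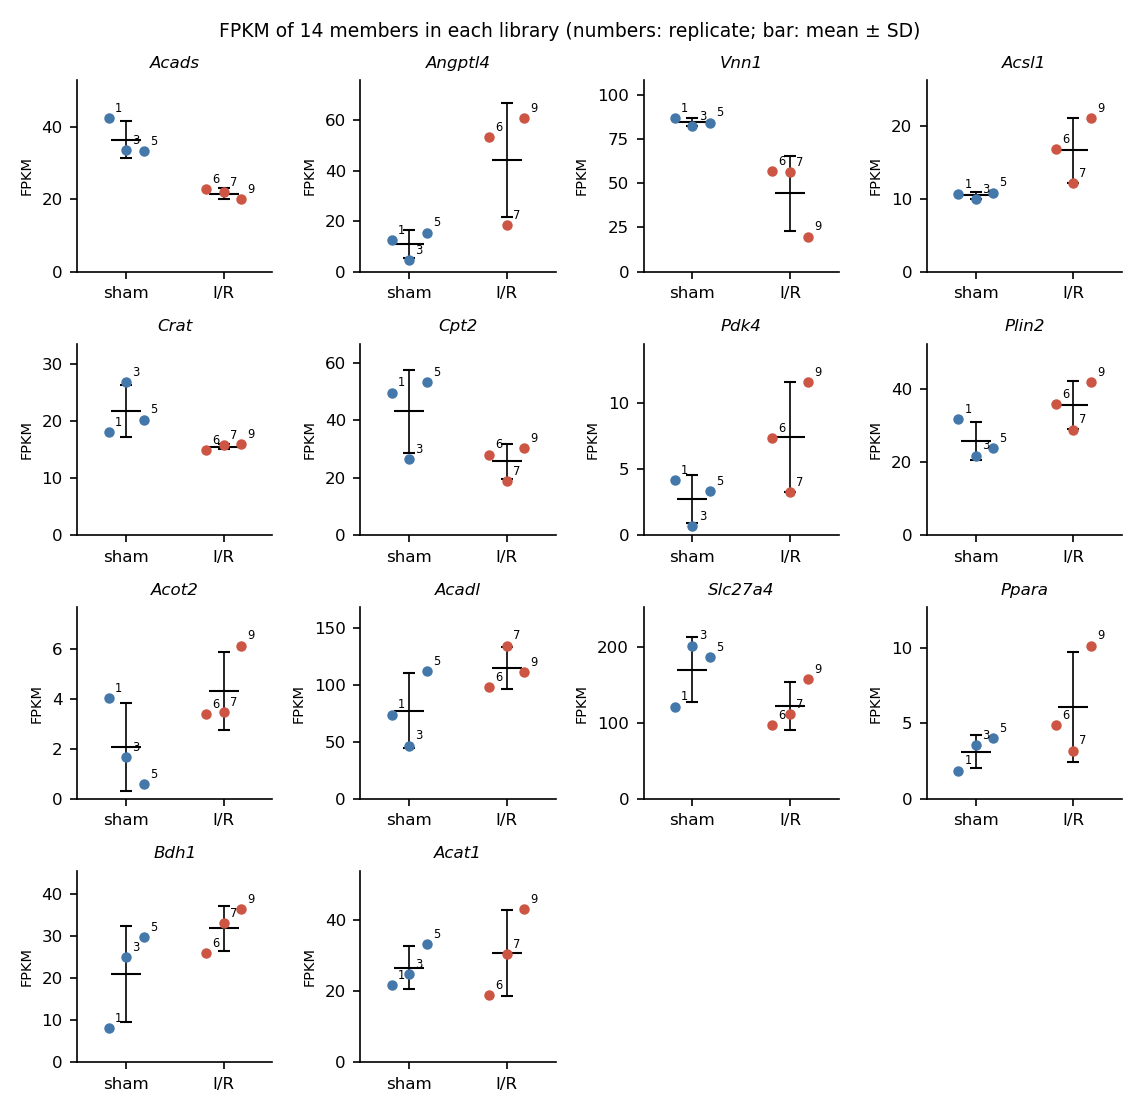
FPKM (y axis, linear, from 0) of 14 members in each sham (blue) and I/R (red) library, with the replicate number beside each point and bars for the mean ± SD (n = 3). Acads, Vnn1 and Crat show I/R points all below sham, Angptl4 and Acsl1 show them all above, and I/R replicate 9 is the highest point for Pdk4, Plin2, Acot2, Ppara, Bdh1 and Acat1.

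Among the genes of uptake and activation, a long-chain acyl-CoA synthetase was higher and a fatty acid transporter lower in most I/R libraries. Acsl1, the acyl-CoA synthetase that feeds oxidation in liver, muscle and fat, was at 10.6, 9.98 and 10.8 FPKM under sham and at 16.8, 12.1 and 21.04 FPKM after I/R. The groups did not overlap, and the log2 fold change was 0.59 ± 0.23 (SE; unadjusted p = 0.039, adjusted p = 0.543). Its unadjusted p rose to 0.090 after median-ratio scaling and to 0.055 for its most abundant transcript alone. With a single library left out, it was below 0.05 only without I/R replicate 7 (0.010) and was 0.074 to 0.119 without any other. The log2 fold change without I/R replicate 9 was 0.42. Acsl1 is also expressed by myeloid cells. Of 14 leukocyte markers 11 had higher means in I/R, and Cd3e, Cd3g and Cd8a had lower ones. The markers summed to 290.1, 44.5 and 35.5 FPKM under sham and to 263, 200 and 125 FPKM after I/R. S100a8 was at 0 in every sham library and at 4.43, 1.46 and 2.39 FPKM after I/R. The other myeloid markers had log2 fold changes from 0.02 (Adgre1) to 1.56 (S100a9). The part of leukocytes in the level of Acsl1 was not tested.

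Acsl5, the main acyl-CoA synthetase of the intestinal epithelium, was far higher in FPKM but differed little between the groups beyond their spread, with means of 513 ± 181 FPKM (SD, n = 3) in sham and 428 ± 169 FPKM after I/R. The ratio of Acsl1 to Acsl5 lay between 0.016 and 0.035 in sham and between 0.032 and 0.058 in I/R, so these ranges overlapped. Acsl3, which acts at the endoplasmic reticulum and lipid droplets, averaged 6.26 ± 1.31 FPKM (SD) under sham and 8.69 ± 2.84 FPKM after I/R (adjusted p = 0.684).

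Slc27a4, the fatty acid transport protein of the enterocyte, was at 121, 202 and 186 FPKM under sham and at 97.2, 111 and 158 FPKM after I/R. Replicates 6 and 7 were below all sham libraries and replicate 9 was inside the sham range, with a log2 fold change of -0.47 ± 0.28 (SE; adjusted p = 0.624) and of -0.67 without replicate 9. Cd36, a fatty acid receptor of many cell types including endothelium and adipocytes, averaged 5.19 ± 0.65 FPKM (SD) under sham and 7.05 ± 1.86 FPKM after I/R (adjusted p = 0.667).

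All 3 members of the carnitine shuttle had lower means in I/R, with a median log2 fold change of -0.44. Related genes that are not members differed in direction. Slc25a20 (log2 fold change 0.28) and Cpt1b (0.59) had higher means in I/R, and Slc22a5 (-0.63) a lower one. Crat, which moves acetyl groups between CoA and carnitine, was at 18.1, 26.8 and 20.2 FPKM under sham and at 14.9, 15.7 and 15.9 FPKM after I/R. The I/R values were close to one another and all below sham, but the log2 fold change of -0.44 ± 0.19 (SE; -0.46 without replicate 9) had an adjusted p of 0.569. Cpt2, which regenerates acyl-CoA on the inner mitochondrial membrane, was at 49.5, 26.5 and 53.2 FPKM under sham and at 28.0, 18.7 and 30.3 FPKM after I/R. Sham replicate 3 lay among the I/R values, so the groups overlapped, with a log2 fold change of -0.69 ± 0.32 (SE; adjusted p = 0.590) and of -0.82 without I/R replicate 9. Cpt1a, the carnitine acyltransferase that controls entry into mitochondria, varied from 7.41 to 25.0 FPKM within sham alone and from 10.4 to 16.2 FPKM after I/R (log2 fold change -0.09, 95% interval -1.10 to 0.92). The listed levels of Crat also differed between its transcripts. ENSMUST00000028207.12, whose start is the outer codon shown above, was at 17.0, 25.1 and 19.4 FPKM under sham and at 14.3, 12.3 and 10.1 FPKM after I/R, with no overlap (log2 fold change -0.69 ± 0.24 SE; adjusted p = 0.663 over all transcripts). ENSMUST00000102854.9, which starts at the inner codon, was at 0.154 FPKM or less in sham, was listed at 0 in I/R replicate 6, and reached 2.75 and 4.18 FPKM in replicates 7 and 9.

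Within mitochondrial beta-oxidation, 7 of the 14 members had higher and 7 lower means in I/R, and the median log2 fold change was 0.06. The 4 acyl-CoA dehydrogenases, which catalyse the first step for successively shorter chains, differed in direction. Acads, the short-chain enzyme at chr5:115110299-115119346, measured 42.4, 33.6 and 33.4 FPKM under sham and 22.8, 22.0 and 19.97 FPKM after I/R. All 3 I/R libraries, including replicate 9, were below all sham libraries by more than either group's spread. The log2 fold change was -0.72 ± 0.17 (SE; 95% interval -1.13 to -0.31), and this was the smallest p of any member (unadjusted p = 0.0045, adjusted p = 0.432 in limma). When each library was left out in turn it stayed between -0.78 and -0.61, and it was -0.67 without I/R replicate 9. After median-ratio scaling its unadjusted p was 0.0013 and its adjusted p 0.289.

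Acadm, the medium-chain dehydrogenase, was nearly level at 70.5 ± 2.94 FPKM (SD, n = 3) in sham and 65.2 ± 8.46 FPKM after I/R. Acadl, the long-chain enzyme, was at 74.0, 46.7 and 112 FPKM under sham and at 98.0, 135 and 112 FPKM after I/R, with sham replicate 5 as high as I/R replicate 9 (log2 fold change 0.64 ± 0.33 SE, or 0.65 without replicate 9; adjusted p = 0.611). Acadvl, the very-long-chain enzyme, averaged 80.7 ± 16.5 FPKM under sham and 99.8 ± 17.0 FPKM after I/R. Ratios within a library do not depend on scaling between libraries. Acads over Acadm was 0.606, 0.456 and 0.492 in sham and 0.374, 0.368 and 0.267 in I/R, without overlap. Acadvl over Acadm was 1.08, 0.912 and 1.46 in sham and 1.49, 1.49 and 1.59 in I/R, also without overlap, though sham replicate 5 came close to the I/R values. Both ratios were picked out after the values were seen and carry no test.

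The later steps of the cycle gave no member past an unadjusted p of 0.05. Hadha and Hadhb, the 2 subunits of the trifunctional protein, averaged 87.1 ± 15.4 and 60.03 ± 9.76 FPKM (SD) under sham and 81.6 ± 2.84 and 71.5 ± 18.1 FPKM after I/R. Echs1, the short-chain enoyl-CoA hydratase, was at 52.4 to 60.8 FPKM under sham, at 32.9 and 32.2 FPKM after I/R in replicates 6 and 7, and at 67.4 FPKM in replicate 9. Replicates 6 and 7 thus lay below and replicate 9 above the whole sham range. The log2 fold change of Echs1 was -0.41, or -0.76 without I/R replicate 9. Hadh, the hydroxyacyl-CoA dehydrogenase, spread from 108 to 315 FPKM within sham and from 226 to 309.9 FPKM after I/R. Acaa2, the mitochondrial thiolase, averaged 52.8 ± 15.5 FPKM under sham and 71.0 ± 26.4 FPKM after I/R. Among the enzymes that prepare unsaturated chains, Eci1, Eci2, Decr1 and Ech1 had log2 fold changes from -0.20 to 0.15, each with an interval that covers 0. Acot2, a mitochondrial thioesterase that releases free fatty acids, was low at 4.03, 1.66 and 0.582 FPKM under sham and at 3.38, 3.47 and 6.13 FPKM after I/R (log2 fold change 0.91 ± 0.46 SE, or 0.68 without replicate 9; adjusted p = 0.601). Its leading transcript shares 17.1% of its 100-base windows with Acot1, so reads could be divided between them.

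Etfa and Etfb, the subunits of the electron transfer flavoprotein, and Etfdh, its dehydrogenase in the inner membrane, were nearly level. Their log2 fold changes were 0.03, 0.09 and 0.04, and each turned negative after median-ratio scaling (-0.11, -0.053 and -0.10). For comparison, 34 of 36 subunits of complex I and 12 of 17 citrate cycle genes had higher means in I/R, with medians of 0.21 and 0.13. Over all genes tested 62.6% were higher, with a median of 0.12, so the citrate cycle lay near that background. In the exon sequence of Etfb, 65.2% of 100-base windows also occur in the gene Gm45233, which is not analysed here.

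Of the 8 peroxisomal members 7 had lower means of log2(FPKM + 1) in I/R, but none reached an unadjusted p of 0.05. The median log2 fold change was -0.18. Of these 7, Hsd17b4 (65.8 FPKM under sham, 66.2 FPKM after I/R) and Pex11a (14.3 and 15.4 FPKM) had higher means of plain FPKM in I/R. Acaa1a averaged 142 ± 12.7 FPKM (SD, n = 3) in sham and 120.1 ± 17.5 FPKM after I/R, while its near copy Acaa1b was at 10.5 ± 2.49 and 9.68 ± 4.67 FPKM. Because 360 of the 100-base windows of their leading transcripts are identical (21.6% of those of Acaa1a and 22.6% of those of Acaa1b), reads could be divided between the pair, and their separate values are uncertain. The stretch printed above is one where a read tells them apart. Hsd17b4, the multifunctional enzyme for branched chains, was at 63.5 to 67.6 FPKM under sham, at 55.1 and 58.6 FPKM after I/R in replicates 6 and 7, and at 85.0 FPKM in replicate 9. Its log2 fold change was -0.016, or -0.21 without I/R replicate 9. Ehhadh, the enzyme for straight chains, was spread widely in sham, from 5.87 to 30.7 FPKM, and from 9.94 to 22.5 FPKM after I/R.

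Pex11a, a membrane protein of peroxisome division, was at 11.996, 15.0 and 15.8 FPKM under sham and at 15.2, 0.999 and 30.1 FPKM after I/R. Replicates 7 and 9 were the lowest and the highest of all 6 libraries, and the log2 fold change of -0.60 ± 0.95 (SE) had the largest error of any member. Without I/R replicate 9 the log2 fold change was -1.42. Decr2, a reductase for unsaturated chains, averaged 14.1 ± 8.48 FPKM (SD) under sham and 8.96 ± 2.91 FPKM after I/R. Crot, which makes medium-chain acylcarnitines for export to mitochondria, averaged 28.6 ± 0.603 FPKM under sham and 25.1 ± 2.93 FPKM after I/R. Abcd3, an importer of the peroxisomal membrane, averaged 75.8 ± 23.5 FPKM under sham and 68.6 ± 18.9 FPKM after I/R.

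Both ketone body members had higher means in I/R, without passing the test. Bdh1, the hydroxybutyrate dehydrogenase, was at 8.11, 25.1 and 29.7 FPKM under sham and at 26.0, 33.2 and 36.4 FPKM after I/R. Sham replicate 1 was far below the other 5 libraries, and I/R replicate 6 fell between the sham values. The log2 fold change was 0.75 ± 0.46 (SE; adjusted p = 0.640). It was 0.20 without sham replicate 1, ranged up to 1.08 with another library left out, and was 0.65 without I/R replicate 9. Acat1, the acetoacetyl-CoA thiolase, was at 21.7, 24.7 and 33.2 FPKM under sham and at 18.8, 30.4 and 42.9 FPKM after I/R, where replicates 6 and 9 were the lowest and the highest of all 6 libraries (log2 fold change 0.15 ± 0.33 SE, or -0.12 without replicate 9; adjusted p = 0.888).

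The I/R libraries differed among themselves in these genes. Replicate 9 held the highest of the 6 values for 20 of the 40 members (50%), against 17.1% of all genes tested. It was the highest of the 3 I/R libraries for 31 members (77.5%, against 29.7% of all genes). The members highest in replicate 9 included 8 of the 14 mitochondrial beta-oxidation genes, 3 of the 8 peroxisomal genes, both ketone body genes, Ppara, Angptl4, Pdk4 and Plin2. Replicate 9 was also highest for 11 of 17 citrate cycle genes, 13 of 36 complex I subunits and 11 of the 48 other pathway genes tested.

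Set against the sham range, the I/R libraries parted further. In replicate 9, 22 members (55%) lay above all sham libraries, against 30.2% of all genes, and 5 (12.5%) lay below, against 20.9%. In replicate 6, 8 members (20%) lay above, against 40.3% of all genes, and 14 (35%) below, against 17.7%. In replicate 7, 6 members (15%) lay above, against 26.9% of all genes, and 14 (35%) below, against 22.4%. Replicates 6 and 7 therefore had fewer members above and more below sham than genes at large, and replicate 9 the reverse.

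Taking replicates 6 and 7 alone, 10 members (25%) lay below all sham libraries in both, against 10.1% of all genes, and 2 (5%) lay above in both, Angptl4 and Acsl1, against 18.4%. The 10 were Slc27a4, Crat, Acadm, Acads, Echs1, Ech1, Hsd17b4, Acaa1a, Acaa1b and Vnn1. In replicate 9, 3 of these were below sham as well (Crat, Acads and Vnn1), 3 lay inside the sham range and 4 lay above it (Acadm, Echs1, Hsd17b4 and Acaa1b). The median log2 fold change of the members was -0.11 without replicate 9, against 0.14 over all genes tested in that setting. No member passed the adjusted test without it either, the lowest adjusted p being 0.434 (Echs1).

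In I/R replicate 9 the regional and muscle markers also differed from those of the other libraries. The sum of the 7 proximal markers was 728 to 3449 FPKM under sham and 1001 and 1494 FPKM after I/R in replicates 6 and 7. In replicate 9 it was 7627 FPKM, of which Fabp1, a liver-type fatty acid binding protein, made up 2880.0 FPKM. The lists overlap, as Fabp1 is also one of the other pathway genes, and Fabp1, Lct, Rbp2 and Apoa4 are also enterocyte markers. The sum of the 4 distal markers was 1314 to 6198 FPKM under sham, 3340.4 and 3103 FPKM in replicates 6 and 7, and 198 FPKM in replicate 9. No tested marker of the proximal, distal or smooth muscle lists was listed at 0 in any library. Among the sham libraries, replicate 3 had the highest median log2(FPKM + 1) of the proximal markers (6.64) and the lowest median of the members (5.11). The part of gut region and of muscle in the members' levels was not tested.

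**Figure D3:**
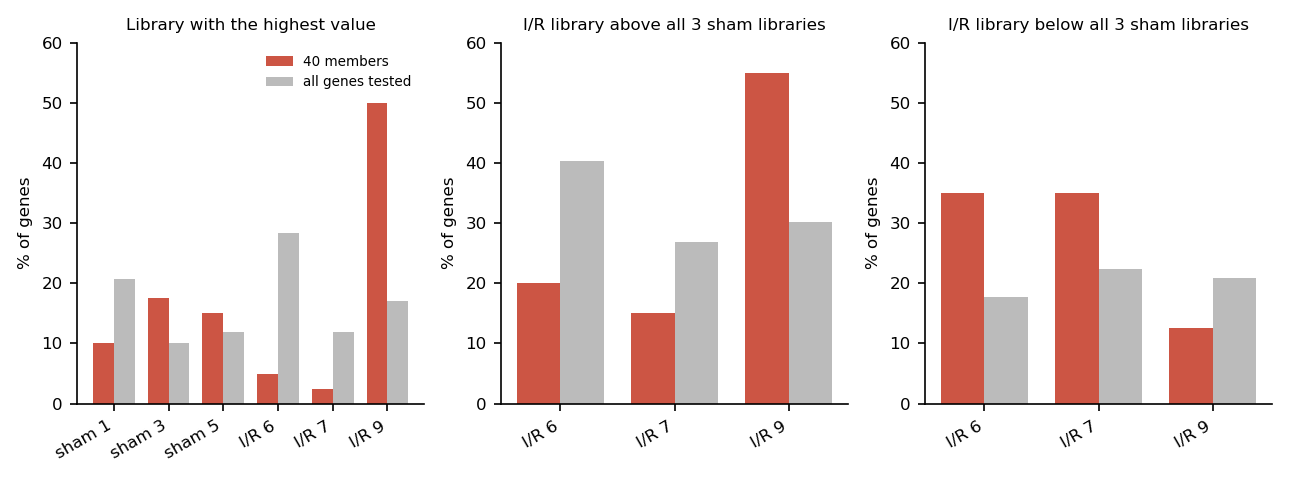
Percentages of the 40 members (red) and of all genes tested (grey) on the y axis. The left panel gives the library holding the highest value, and the other panels give genes in each I/R library that lie above or below all 3 sham libraries. I/R replicate 9 is highest for 50% of the members and 17.1% of all genes, and replicates 6 and 7 each have 35% of the members below sham.

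**Figure D4:**
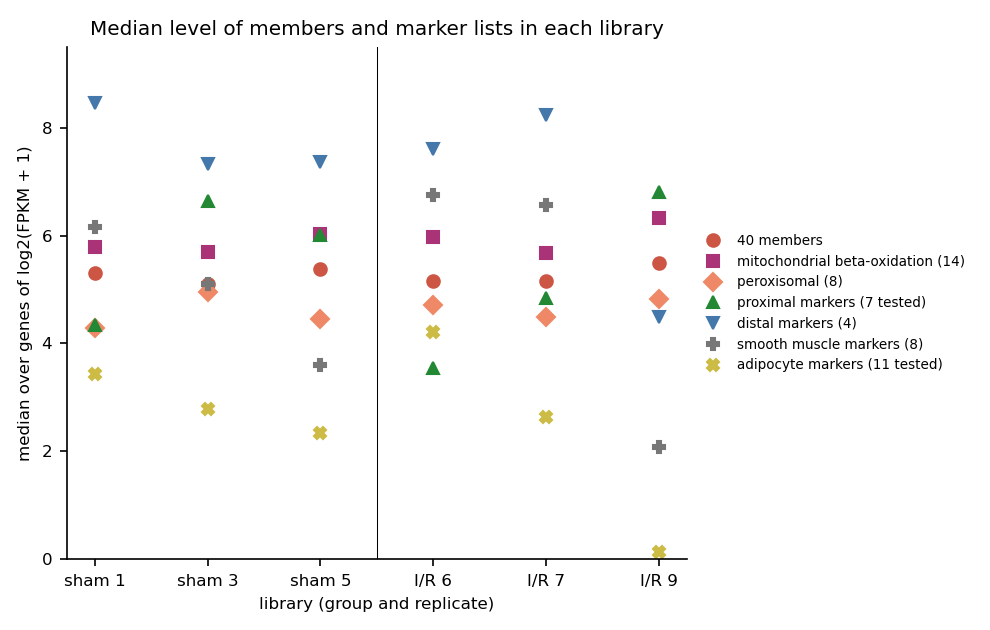
Median log2(FPKM + 1) over genes (y axis) in each of the 6 libraries (x axis) for the 40 members, 2 of their roles and 4 marker lists. The members' medians stay between 5.11 and 5.49, while in I/R replicate 9 the distal (4.48), smooth muscle (2.09) and adipocyte (0.13) medians are the lowest of all libraries and the proximal one (6.81) the highest.

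Library medians were also taken by role. Over all 40 members the median of log2(FPKM + 1) was 5.30, 5.11 and 5.39 in sham and 5.15, 5.16 and 5.49 in I/R, so replicates 6 and 7 lay inside and replicate 9 above the sham range. The carnitine shuttle median was below all sham libraries in all I/R libraries (sham libraries, 4.26 to 4.78, and I/R libraries, 4.06 to 4.11). The median of the further PPARA targets lay above them in all 3 (sham libraries, 3.51 to 4.40, and I/R libraries, 4.59 to 5.48), as did that of uptake and activation (sham libraries, 3.46 to 3.56, and I/R libraries, 3.71 to 4.46). I/R replicates 6 and 9 were the highest library of these last 2 roles respectively, and the carnitine shuttle median hardly differed between I/R libraries. In every library the uptake and activation median was the value of Acsl1 alone, and the carnitine shuttle median that of a single gene, which changed between libraries. The median of the further PPARA targets was set by Plin2 and Vnn1 in I/R replicate 9 and by Angptl4 and Plin2 in every other library. Vnn1 itself was lower in every I/R library. Summed FPKM overlapped for uptake and activation (451 to 865 under sham, 423 to 813 after I/R). They also overlapped for the further PPARA targets (109 to 135 and 107 to 153). The sham and I/R medians overlapped for mitochondrial beta-oxidation (5.69 to 6.04 against 5.67 to 6.33), electron transfer (6.54 to 6.93 against 6.597 to 6.94), the peroxisomal genes (4.29 to 4.95 against 4.50 to 4.83), the ketone body genes (3.85 to 5.02 against 4.53 to 5.34) and Ppara. These medians were not tested.

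Transcript values added detail for the 13 members with at least 2 listed transcripts. The transcript that led was the same in all 6 libraries for 8 of them and changed between libraries for Acsl3, Cd36, Eci2, Hadhb and Ppara. Of their 42 transcripts 40 could be tested and none passed (lowest adjusted p = 0.585 in limma over 18216 transcripts, of which 0.0329% passed). At an unadjusted p below 0.05, 1 was higher, against 4.61% of all transcripts, and 2 were lower, against 2.8%. These were ENSMUST00000114783.5 of Hadhb on the higher side, and ENSMUST00000028207.12 of Crat and a minor transcript of Acaa1a on the lower side.

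For Hadhb, the leading transcript was one of 2 that have the same 1425-base coding sequence and differ mainly at the end of the first exon. ENSMUST00000114786.7 was at 21.7, 22.7 and 24.9 FPKM under sham and at 58.1, 14.5 and 76.4 FPKM after I/R. ENSMUST00000026841.14 was at 27.5, 45.5 and 37.4 FPKM under sham and at 16.2, 35.2 and 8.35 FPKM after I/R. The first led in I/R replicates 6 and 9, and the second led in every sham library and in replicate 7. Neither differed between the groups at an unadjusted p of 0.05. The third transcript, ENSMUST00000114783.5, was at 0.430 FPKM or less in sham and at 3.39, 1.43 and 1.12 FPKM after I/R, without overlap. Because the transcripts share nearly all their sequence, and 52.8% of the 100-base windows of the leading one also occur in Gm13910, which is not analysed here, these assignments are uncertain.

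**Figure D5:**
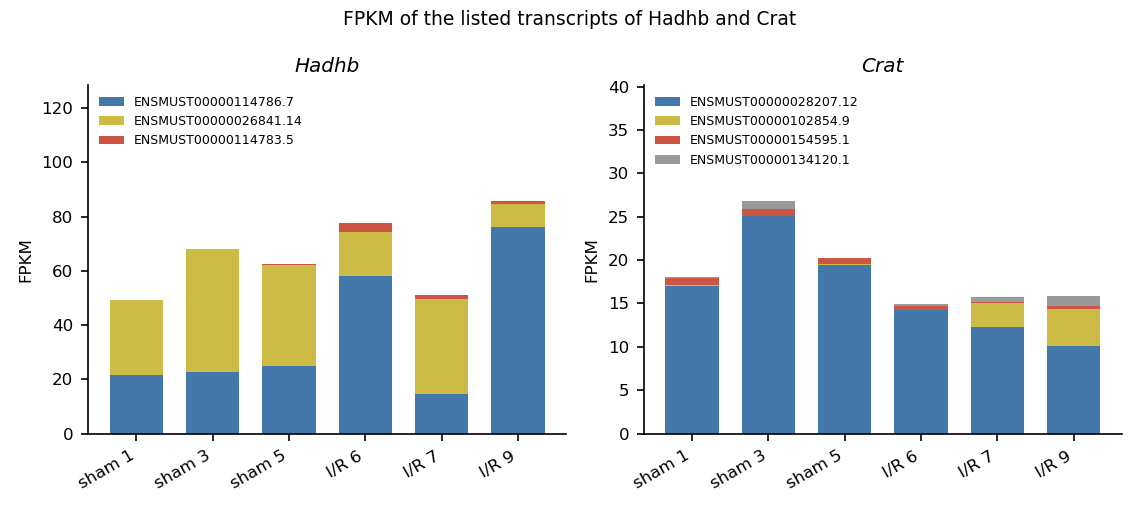
Stacked FPKM (y axis) of the listed transcripts of Hadhb (left) and Crat (right) in each library (x axis). For Hadhb, ENSMUST00000114786.7 makes up most of the bar in I/R replicates 6 and 9 only, and for Crat the part given to ENSMUST00000102854.9 is visible in I/R replicates 7 and 9 (2.75 and 4.18 FPKM).

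Ppara had 3 listed transcripts, of which ENSMUST00000109423.7 led in sham replicates 1 and 3 and ENSMUST00000109422.7 in sham replicate 5 and all I/R libraries. The latter was at 0.768, 0.406 and 2.73 FPKM under sham and at 2.25, 1.45 and 7.39 FPKM after I/R. Sham replicate 5 exceeded replicates 6 and 7, so the groups overlapped. ENSMUST00000057979.5 was at 0.291, 0.447 and 0.022 FPKM under sham and at 1.54, 0.937 and 0.630 FPKM after I/R, where all libraries lay above sham (log2 fold change 0.69 ± 0.29 SE; adjusted p = 0.674 in limma). It was above ENSMUST00000109423.7 in I/R replicates 6 and 7, with 31.6% and 29.4% of the summed level of Ppara.

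PPARA binds DNA with its partner RXR at paired AGGTCA half-sites separated by 1 base. RefSeq promoter windows of 300 bases (GRCm38.p6, 250 before to 50 after the start) were found for 33 members and were searched on both strands. The pair AGGTCANAGGTCA was in none of them and in 0.0396% of all 32851 windows, and the looser AGGNCANAGGNCA, which contains the first, was also in none and in 0.381% of all. A single AGGTCA was in the windows of 6 members (Acadm, Acadvl, Cd36, Cpt1a, Echs1 and Plin2) and in 16.3% of all windows.

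A further 55 genes of the same pathway, which are not members, gave 48 that could be tested. Their means were higher in I/R for 19 and lower for 29, with a median log2 fold change of -0.08, and none passed the adjusted test in limma. At an unadjusted p below 0.05, 1 of the 48 was higher and 1 lower, against 5.56% and 3.38% of all genes. Without overlap, 1 lay above sham and 3 below, against 10.6% and 5.89% of all genes. Slc16a1, a carrier of lactate and ketone bodies, was at 15.7, 15.4 and 20.6 FPKM under sham and at 23.4, 25.2 and 29.3 FPKM after I/R, all I/R libraries being above sham (log2 fold change 0.57 ± 0.19 SE; adjusted p = 0.518). Pex5, the receptor that imports peroxisomal enzymes, was at 10.3, 16.5 and 13.4 FPKM under sham and at 8.33, 6.52 and 9.75 FPKM after I/R, all below sham (log2 fold change -0.64 ± 0.24 SE; adjusted p = 0.541). The next 3 by p were Slc22a5, the carnitine transporter, at -0.63, Acadsb, a dehydrogenase for branched short chains, at 0.89, and Hacl1, a peroxisomal lyase of alpha-oxidation, at -0.62.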

How the data were processed

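The deposited table holds FPKM per transcript, made by the authors from stranded total RNA libraries. The submitters' processing notes name cutadapt, HISAT2 2.0.4, StringTie and mm10, and the annotation is not given in the sources used here. Of 19763 listed transcripts, 19702 were matched to GENCODE M21 and summed per gene, and 61 kept their own identifier. Summed FPKM can shift when reads move between long and short transcripts. The 12006 genes averaging 0.5 FPKM or more across the 6 libraries were tested with limma 3.58.1 (R 4.3.3, mean-variance trend, group as the sole term, 2-sided) on log2(FPKM + 1), which understates changes of low genes, with a Benjamini-Hochberg threshold of 0.05. No scaling was added. The members and lists were chosen with earlier results of these data known. Per-library values are given for the 12 members with the smallest p, Ppara, Acat1 and Bdh1, and other members are given by mean or range, or per library where named for a pattern seen in the values. Of other pathway genes, values are given for the 5 with the smallest p. They are also given for Slc25a20 and Cpt1b beside the carnitine shuttle and for Fabp1 as a regional marker. The code was tested on simulated data with the variance that limma fitted here and independent noise. Shifts were made on the log2(FPKM + 1) scale in 200 genes of about 4 FPKM or more. Changes in lower genes, and differences that many genes of a library share, were not simulated. At the adjusted threshold the code recovered 8.13% of genes changed 2-fold, 69.3% of those changed 4-fold and 87.0% of those changed 8-fold. A change of 2-fold would thus mostly be missed. Alternatives covered the pseudocount, filters, scaling, the trend, the leading transcript and leaving out each library. Sequences came from GENCODE M21 and mm10.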

Additional observations from a re-analysis of the deposited data

How the results depend on the processing

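No paired analysis was possible because the sham libraries (1, 3 and 5) and the I/R libraries (6, 7 and 9) share no replicate number. Under 15 alternatives no member passed the adjusted threshold (lowest adjusted p 0.269, Acot2 without sham replicate 1), and 26 of 40 members kept the sign of their fold change. The median log2 fold change of all genes was 0.12, and 0.01 after median-ratio scaling, where the members' median was -0.14.

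Among all genes, 1 was lower at a minimum mean of 5 FPKM and 1 with only genes above 0 in all libraries, 0 were higher after median-ratio scaling, and 1 was higher after quantile normalization and 1 for the most abundant transcript. Members higher at an unadjusted p below 0.05 numbered 1 after median-ratio scaling and 1 for the most abundant transcript, and 7 members lay below sham without overlap after median-ratio scaling. The shares of all genes in these settings are not given here, so these counts are not a result about the members. Etfa (-0.11), Etfb (-0.053) and Etfdh (-0.10) turned negative after median-ratio scaling, and Eci2 (0.13) turned positive for the most abundant transcript. The causes were not tested.

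Leaving out 1 library at a time gave 0 to 4 genes higher and 0 to 5 lower past the adjusted threshold, and medians of the members from -0.11 to 0.13. At an unadjusted p below 0.05, 1 to 4 members were higher and 1 to 3 lower. Without overlap, 2 to 8 members lay above and 3 to 10 below sham (10 without I/R replicate 9, or 25%, against 10.1% of all genes). For the other settings the shares of all genes are not given here, so these counts are not a result about the members. Log2 fold changes ranged from -0.34 to 0.10 for Abcd3, -0.50 to 0.059 for Acaa1b, -0.12 to 0.45 for Acat1, -0.53 to 0.29 for Cpt1a, -0.24 to 0.19 for Decr1, -0.24 to 0.21 for Eci2, -0.062 to 1.04 for Ehhadh, -0.078 to 0.14 for Etfa, -0.015 to 0.20 for Etfb, -0.062 to 0.17 for Etfdh, -0.059 to 0.71 for Hadh, -0.22 to 0.029 for Hadha, -0.21 to 0.10 for Hsd17b4 and -1.42 to 0.56 for Pex11a. Depth is unknown, so no counting error can be given.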
